A study of Mus musculus with 58 samples.

Results

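Bcl6 and a long intergenic transcript interval beside it on chromosome 16 were followed across 3 tissues of mice dosed with benz(a)anthracene (BaA), which belongs to the polycyclic aromatic hydrocarbons. The members were all probes that the array assigns to Bcl6 or to the interval chr16:23992037-24001037 (mm9), with probes for its forward strand (chr16:23992037-24001037_F) and reverse strand (chr16:23992037-24001037_R) kept apart and called F and R below. This gave 15 of the 55681 gene probes, namely 1 for Bcl6 (NM_009744), 7 for the F strand and 7 for the R strand. Probes of a strand share 1 target interval and are not independent of each other. The gene and the interval were selected on their log2 ratios in these same arrays, across all doses and tissues, and on the correlation between them, so their levels, changes and correlations are descriptions and carry no test.

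Male Muta™Mouse animals aged 10 weeks, transgenic for a lacZ reporter used to score mutations, received BaA in olive oil by oral gavage daily for 28 days. The doses were 0 (D0, olive oil alone), 20 (D1), 40 (D2) and 80 (D3) mg/kg-bw/day, and tissues were taken 72 h after the last dose. All groups, controls included, carried the transgene and received the vehicle. The 58 arrays came from 20 mice, with 5 mice per group except liver D3 and forestomach D0, which had 4. Every array paired the RNA of 1 tissue of 1 mouse (Cy5) with the same reference RNA pooled from cell lines (Cy3), and every value below is the log2 ratio of tissue to reference.

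BCL6 is a zinc finger protein of the BTB/POZ family that represses transcription through corepressors such as BCOR. It is best known as the factor that germinal centre B cells and follicular helper T cells require. In liver it restrains genes of fasting and fat oxidation that PPARα activates, and growth hormone acting through STAT5 lowers its level. Long intergenic non-coding RNAs are transcripts from the stretches between protein-coding genes, and many lie close to a gene for a transcription regulator.

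RefSeq (GRCm38.p6) lists 2 start sites for Bcl6, and the 300 bases around each, from 250 before to 50 after the start, are shown because sites for BCL6 itself and for STAT factors, which respond to growth hormone, can be read in them. Capitals mark matches, searched on both strands, to CACGTG (an E-box), TTCNNNGAA (a STAT site) and TTCCTNGAA (a BCL6 site, every match of which is also a STAT site).
Bcl6 upstream start, chr16:23988803-23989102, minus strand: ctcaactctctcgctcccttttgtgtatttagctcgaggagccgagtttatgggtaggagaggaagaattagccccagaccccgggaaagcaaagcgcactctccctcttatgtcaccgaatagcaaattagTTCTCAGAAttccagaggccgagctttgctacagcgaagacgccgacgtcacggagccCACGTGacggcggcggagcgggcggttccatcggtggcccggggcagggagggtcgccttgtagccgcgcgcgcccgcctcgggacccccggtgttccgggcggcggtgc
Bcl6 downstream start, chr16:23981234-23981533, minus strand: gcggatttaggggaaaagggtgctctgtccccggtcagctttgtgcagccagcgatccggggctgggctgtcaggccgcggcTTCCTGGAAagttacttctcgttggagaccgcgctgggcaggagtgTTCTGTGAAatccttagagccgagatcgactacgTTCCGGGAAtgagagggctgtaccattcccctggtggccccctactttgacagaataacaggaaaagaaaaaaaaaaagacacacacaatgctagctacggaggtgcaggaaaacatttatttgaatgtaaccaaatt
The upstream stretch holds 1 E-box and 1 STAT site, and the downstream stretch holds 3 STAT sites, of which 1 is also a BCL6 site. Of the 32851 promoter stretches of this length, 7.15% hold the E-box, 8.3% the STAT site and 1.59% the BCL6 site. A match of letters describes the sequence and does not show that a factor binds there. In the same RefSeq assembly the record next to Bcl6 on one side is Rtp2 and on the other Gm31527, a non-coding RNA gene. The interval's position is in the older build mm9, so its distance to Bcl6 and its relation to Gm31527 are not given here, and the probe sequences were not analysed here.

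The Bcl6 probe was bright, with a median Cy5 signal of 3379 for lung, 2093 for forestomach and 1403 for liver above a local background of 67 to 73, and it stood well above background on all 58 arrays. The interval probes were dim, with median Cy5 signals between 71 and 218 by probe and tissue. Of the 7 F strand probes, 6 passed the brightness filter (well above background on at least 4 arrays of a tissue) in each tissue. Of the 7 R strand probes, 2 passed in lung, 4 in liver and 5 in forestomach. A_30_P01021327 (R) was not well above background on any array, and A_30_P01029157 (F) and A_30_P01027148 (R) passed in no tissue. A strand mean below is the mean over the probes that passed in that tissue.

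In liver, the interval was most abundant in the controls and lowest at the middle dose, while Bcl6 was not. The F strand mean was 2.16 ± 0.76 (SD, n = 5) at D0, 1.17 ± 0.57 (n = 5) at D1, 0.62 ± 0.43 (n = 5) at D2 and 1.49 ± 0.44 (n = 4) at D3. Relative to D0 it differed by -0.998 (SE 0.36) at D1, -1.55 (SE 0.36) at D2, a 2.92-fold lower mean ratio, and -0.67 (SE 0.38) at D3. Among its probes, A_30_P01021853 was well above background in 1 of 5 D2 livers and A_30_P01021475 in 2 of 5. The D2 mean therefore rests in part on values at the background. All contrasts share the D0 mice. The lowest level was thus at the middle dose, and the highest dose lay between it and the controls.

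By mouse, the F strand mean in liver read 2.84, 2.09, 2.99, 1.70 and 1.20 in control mice 1 to 5. In D1 mice 6 to 10 it read 1.69, 0.41, 0.83, 1.15 and 1.76. In D2 mice 11 to 15 it read 1.33, 0.50, 0.53, 0.57 and 0.15. Only mouse 11 of the D2 group lay above the lowest control, so 4 of 5 D2 livers were below every control. The D3 mice 16 to 19 read 0.88, 1.52, 1.65 and 1.91, and 3 of these 4 lay within the range of the controls.

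The R strand in liver also read lowest at D2. Its mean was 0.67 ± 0.31 (SD, n = 5) at D0, 0.36 ± 0.22 at D1 (n = 5), 0.07 ± 0.14 at D2 (n = 5) and 0.37 ± 0.11 at D3 (n = 4). Control mice 1 to 5 read 0.95, 0.52, 1.04, 0.50 and 0.32, and D2 mice 11 to 15 read 0.31, -0.04, 0.10, -0.02 and 0.01. No D2 liver reached the lowest control. Of the D2 livers, 0, 0, 1 and 1 were well above background for its 4 probes, so the D2 values stood at the background and do not give a level. A_30_P01021218 and A_30_P01021393 passed the brightness filter through D0 and D1 livers alone. A lower strand mean at D2 was thus partly built in by the filter, and nothing is read from its lack of overlap with D0. The measured difference from D0 at D2 was -0.59 (SE 0.14), and it was between -1.98 (Agilent's background-subtracted signals) and -0.33 (arrays centred on their median) under other processing. Across the 19 livers the means of the strands followed each other closely (Pearson r = 0.97, Spearman rho = 0.93, and r = 0.94 after subtracting each dose group's mean).

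Bcl6 in liver varied more between mice of a group than between doses. Control mice 1 to 5 read 1.57, 0.82, 1.93, -0.16 and -1.12. D1 mice 6 to 10 read 1.56, 0.21, -1.33, -0.04 and 1.54. D2 mice 11 to 15 read 1.63, 1.71, 0.56, 0.51 and 2.57, and D3 mice 16 to 19 read 0.91, 0.91, 0.28 and 2.49. All groups overlapped. The group means were 0.61 ± 1.26 (SD), 0.39 ± 1.21, 1.40 ± 0.87 and 1.15 ± 0.94 from D0 to D3, and the differences from D0 were -0.22 (SE 0.61), 0.79 (SE 0.61) and 0.54 (SE 0.65). The D2 group, with the lowest interval level, had the highest mean of Bcl6.

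**Figure D1:**
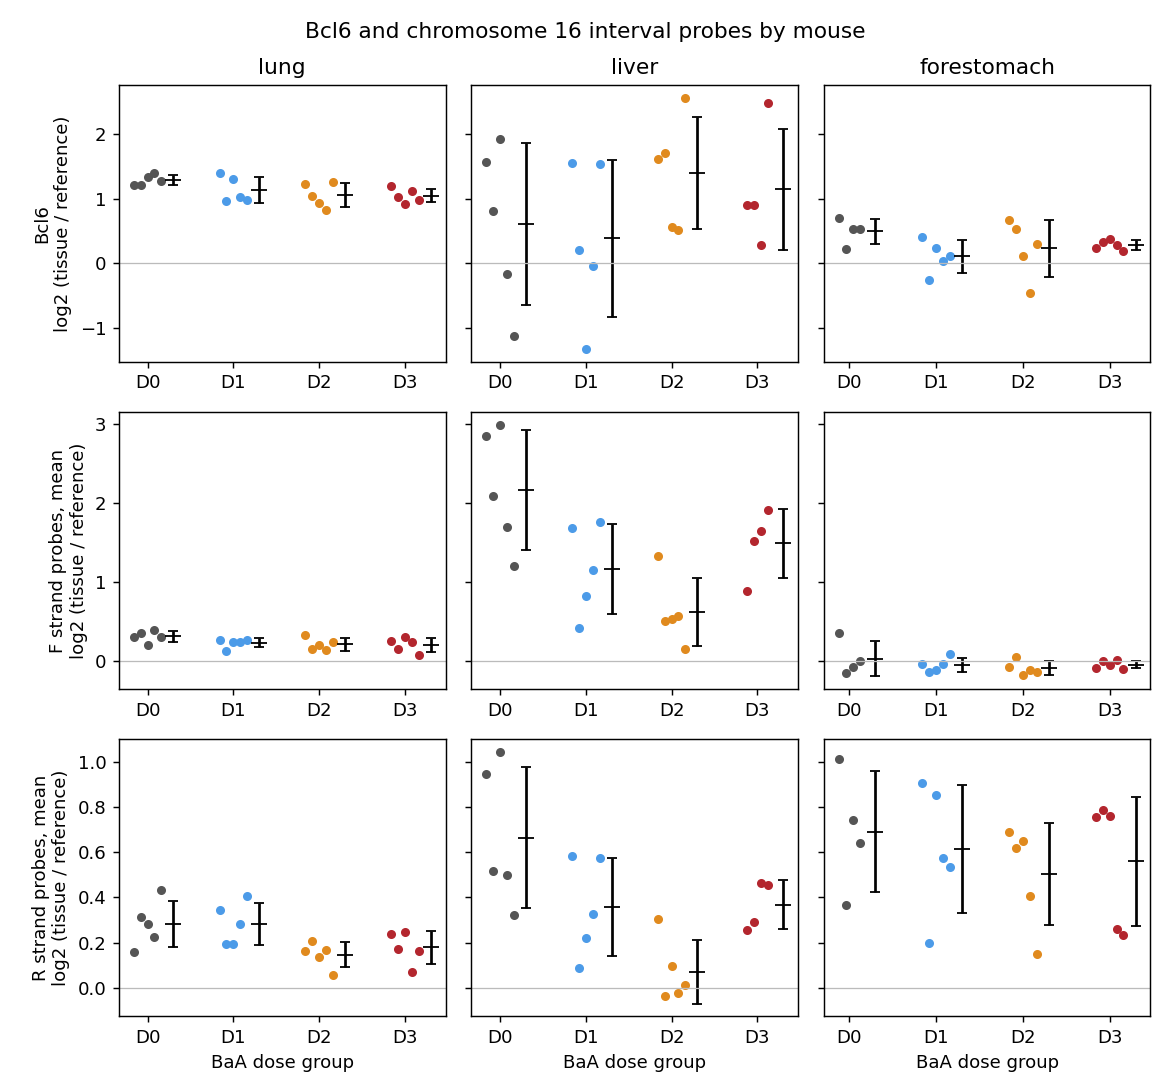
Log2 ratio of tissue to reference for Bcl6 (top row), the mean of the F strand probes (middle) and the mean of the R strand probes (bottom) in lung, liver and forestomach by dose group. Points are mice and the black bars are the mean ± SD; the vertical scale differs between rows. In liver the F strand mean went from 2.16 at D0 to 0.62 at D2, whereas Bcl6 spread from -1.33 to 2.57 with overlapping groups.

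The F strand probes differed in how far they fell in liver. A_30_P01022030 went from 2.72 ± 0.92 (SD) at D0 to 1.10 ± 0.47 at D1, 0.52 ± 0.34 at D2 and 1.69 ± 0.62 at D3. Its range was 1.34 to 3.62 at D0 and 0.21 to 1.03 at D2, with no overlap. The D2 difference of A_30_P01020303 was -2.13 (SE 0.41), with 4 of 5 D2 livers well above background. That of A_30_P01021853 was -1.85 (SE 0.31), but only 1 of 5 D2 livers was well above background there, so its D2 level is not known. The D2 differences of A_30_P01024256 (-1.29, SE 0.34), A_30_P01033600 (-1.22, SE 0.39) and A_30_P01021475 (-0.60, SE 0.28) were smaller and their groups overlapped. All 6 were lower than D0 at each dose, with medians over the probes of -0.999 at D1, -1.57 at D2 and -0.68 at D3, against medians over all tested probes of -0.0016, -0.012 and -0.0036. Under other processing the D2 difference of the strand mean was between -2.36 (Agilent's background-subtracted signals) and -1.0 (Cy5 channel alone).

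On the R strand in liver, A_30_P01022259 was at 1.30 ± 0.51 at D0 and 0.24 ± 0.29 at D2, a difference of -1.06 (SE 0.22) with no overlap, and 1 of 5 D2 livers was well above background for it. A_30_P01021218 and A_30_P01021393 were not well above background in any D2 liver. On the Cy5 channel alone their D0 level was put at no less than 1.21-fold and 1.17-fold the D2 level, with no error attached. Only 3 of 5 and 2 of 5 D0 livers were well above background for them. Both passed the filter through D0 and D1 livers alone, so a higher D0 was built in and nothing is read from these folds. At D2, 3 of the 6 F strand probes and 2 of the 4 R strand probes met the study's thresholds downward (adjusted p at most 0.05 and 1.5-fold), where 0.566% of all 22789 tested probes did, 0.597% in either direction, and 0.67% of the 3135 tested probes of all genome intervals. A_30_P01021218, 1 of these R strand probes, passed the brightness filter through 3 D0 livers and 1 D1 liver, so it had to be lower at D2. The groups did not overlap, downward, for 3 F strand probes and 1 R strand probe, against 1.83% of all probes. Since these values chose the members, nothing is read from these counts. At D1 and D3, 0 members met the thresholds in liver, where 0.237% and 0.36% of all probes did so downward and 0.241% and 0.434% in either direction.

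**Figure D2:**
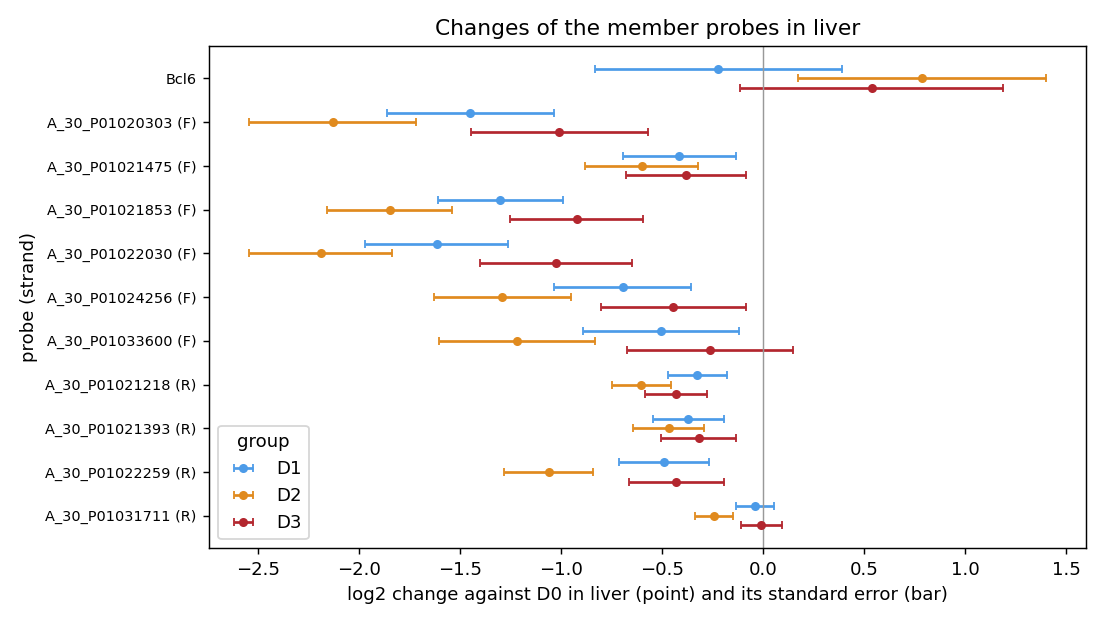
Log2 change against D0 in liver for Bcl6 and for the interval probes that passed the brightness filter (F or R strand in brackets), with the standard error from the limma model as bars. D2 lay furthest to the left for all 10 interval probes, down to -2.19 for A_30_P01022030, while Bcl6 lay at 0.79. A_30_P01021218 and A_30_P01021393 passed the filter through D0 and D1 livers alone.

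Each liver slide held all 4 dose groups, with 1 or 2 mice of a group on each, so the difference could be read within a slide. The F strand mean at D2 was lower than at D0 on each slide, with differences of -1.79 on slide 1, -1.93 on slide 2 and -1.498 on slide 3. The R strand mean differed by -0.73, -0.81 and -0.41. The corresponding differences for Bcl6 were -0.35, 0.09 and 2.72. The F strand difference thus had 1 sign on the 3 slides and that of Bcl6 did not. On 1 liver array, of D2 mouse 11, A_30_P01020303 was bright in the reference channel, at a Cy3 signal of 173.5 where the other livers had 88 to 114.5. Without it the D2 difference of that probe was -2.28.

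The interval and Bcl6 ran together among control livers, but not across dose groups. In the controls the 5 mice had the same order for Bcl6, the F strand mean and the R strand mean, with mouse 3 highest and mouse 5 lowest. Over all 19 livers the F strand mean and Bcl6 had a Pearson r of 0.24 and a Spearman rho of 0.20 (r = 0.18 without the 2 mice farthest from the median of Bcl6). After each dose group's mean was subtracted, r was 0.64. For the R strand mean the values were 0.21 and 0.67. The clearest separation was in D2 mouse 15, with the highest Bcl6 of all livers (2.57) and the lowest F strand mean (0.15). The difference between the F strand mean and Bcl6 in the same liver averaged 1.55 ± 0.52 (SD) in controls and -0.78 ± 1.05 at D2. These points share arrays, and both quantities are ratios to the same reference.

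**Figure D3:**
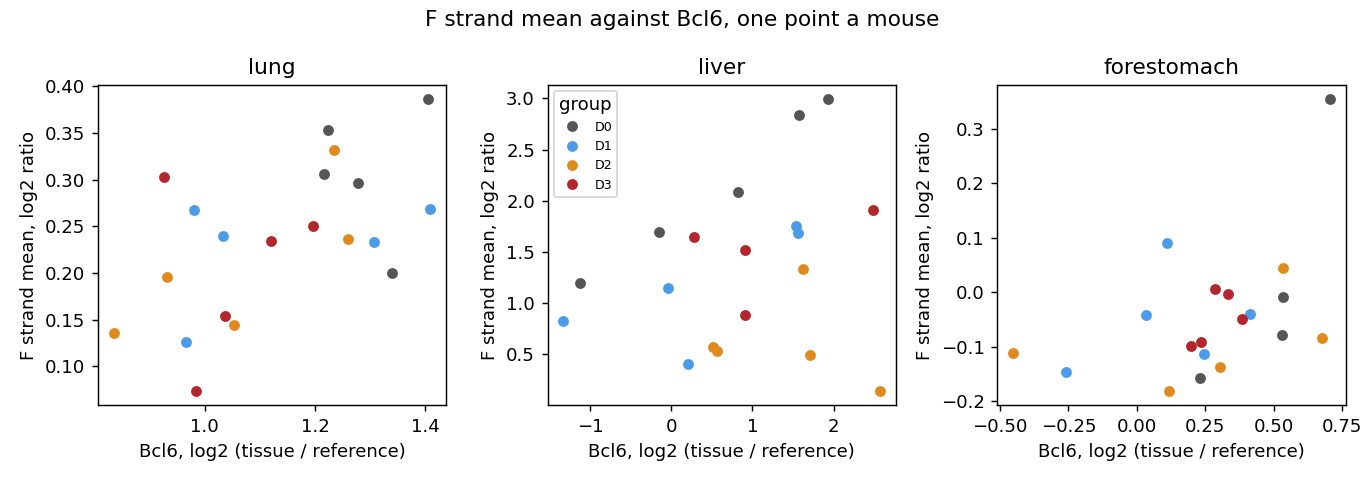
F strand mean against Bcl6, both as log2 ratio of tissue to reference, with 1 point per mouse coloured by dose group, in lung, liver and forestomach; the axes differ between panels. In liver the controls rise together from mouse 5 to mouse 3. The D2 mice other than mouse 11 lie below every control, at Bcl6 values within or above the control range. The r was 0.24 over all livers and 0.64 within groups.

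In lung, Bcl6 was steady and slightly lower with dose. Control mice 1 to 5 read 1.22, 1.22, 1.34, 1.40 and 1.28, and D3 mice 16 to 20 read 1.20, 1.04, 0.93, 1.12 and 0.98, all below the lowest control. D1 mice 6 to 10 read 1.41, 0.97, 1.31, 1.03 and 0.98, and D2 mice 11 to 15 read 1.24, 1.05, 0.93, 0.84 and 1.26, and both groups overlapped the controls. The means were 1.29 ± 0.08, 1.14 ± 0.20, 1.06 ± 0.19 and 1.05 ± 0.11 (SD, n = 5 each) from D0 to D3, a difference of -0.24 (SE 0.10) at D3, or 1.18-fold. At D3, 2.66% of all tested lung probes had every dosed mouse below every control. The direction depended on the normalisation, since with arrays only centred on their median the differences were 0.16 at D1, 0.38 at D2 and 0.06 at D3. Genes of the circadian clock moved with dose in the same lungs, with a centred mean of the 10 clock output genes of -0.90 to 0.04 at D0 and 0.15 to 0.74 at D3. At D3, 6 of the 10 were called higher, where 1.88% of all tested lung probes were called in either direction. Their part in the Bcl6 values was not tested. In liver, 0 of the 10 were called at any dose. Over the livers their score had r = -0.40 with the F strand mean, and that of 3 clock genes of opposite phase had r = 0.49. The part of the clock in the F strand values was not tested.

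The strand means of the interval in lung were low. The tested F strand probes ranged at D0 from -0.41 (A_30_P01020303) to 1.14 (A_30_P01024256). Uncorrected background pulls the ratios of dim probes towards the reference level, so these means do not measure the distance from it. The F strand mean was 0.31 ± 0.07 at D0 and 0.20 ± 0.09 at D3, and the R strand mean, over 2 probes, 0.28 ± 0.10 and 0.18 ± 0.07. The F strand probe A_30_P01024256 was at 1.14 ± 0.14 at D0, 0.99 ± 0.07 at D1, 0.72 ± 0.20 at D2 and 0.74 ± 0.19 at D3. The lowest D2 value, 0.38, came from mouse 15, whose spot was bright in both channels (a Cy3 signal of 1494 where the other lungs had 69 to 104). Without that array the D2 difference was -0.34 in place of -0.42. All D2 mice were below all controls for this probe, as for 1.21% of all tested lung probes. No member met the thresholds in lung at any dose, where 0%, 0.553% and 1.88% of all tested probes did at D1, D2 and D3. The F strand mean and Bcl6 had r = 0.58 and rho = 0.48 over the 20 lungs, and r = 0.40 within dose groups. The 15 pairs of F strand probes had correlations from -0.50 to 0.64 in lung, against 0.67 to 0.98 in liver.

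In forestomach the means of the strands rest on different probes and are not compared with each other. The R strand mean, over 5 probes, was 0.69 ± 0.27 (n = 4) at D0, 0.61 ± 0.28 at D1, 0.50 ± 0.23 at D2 and 0.56 ± 0.29 at D3 (n = 5 each). The F strand mean, over 6 probes, was 0.03 ± 0.23, -0.05 ± 0.09, -0.09 ± 0.09 and -0.05 ± 0.05. A_30_P01022259 (R) read 2.03, 0.95, 1.41 and 1.02 in control mice 1 to 4 and 1.77, 1.30, 1.495, 0.44 and 0.51 in D3 mice 16 to 20. The groups overlapped at every dose for every member that passed the filter, whereas 1.42%, 1.18% and 1.96% of all tested probes did not overlap at D1, D2 and D3. No member met the thresholds in forestomach, where 0%, 0.0124% and 0.0248% of all probes did at D1, D2 and D3.

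The R strand level in forestomach moved with the slide. Its mean was 0.80 on slide 1 (0.62 to 1.01 over 6 arrays), 0.66 on slide 2 and 0.29 on slide 3 (0.15 to 0.54 over 6 arrays). The share of spots well above background had a median of 57.2%, 55.4% and 41.4% on these slides. The part of this in the level was not tested. Within slides the R strand difference at D3 was -0.24, 0.07 and -0.12.

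Bcl6 in forestomach read 0.70, 0.23, 0.53 and 0.53 in control mice 1 to 4 and 0.23, 0.33, 0.38, 0.29 and 0.20 in D3 mice 16 to 20. D1 mice 6 to 10 read 0.41, -0.26, 0.25, 0.03 and 0.11, and D2 mice 11 to 15 read 0.67, 0.53, 0.12, -0.45 and 0.30. Every dosed group overlapped the controls. The group means were 0.50 ± 0.20, 0.11 ± 0.25, 0.24 ± 0.44 and 0.29 ± 0.07, and the differences from D0 were -0.39, -0.26 and -0.21 (SE 0.18 each). The D2 difference was -0.005 with arrays centred on their median, and -0.37 to -0.09 when single mice were left out. Genes of the glandular stomach, a neighbouring part of the organ, moved opposite to Bcl6. The mean of the 10 marker genes, each centred on its own mean, ranged from -2.94 to 2.15 at D0, from 1.37 to 2.55 at D1, from -2.72 to 2.56 at D2 and from -2.49 to 2.34 at D3, and its correlation with Bcl6 over the 19 forestomachs was -0.65. Markers of fat, of which 6 of 7 were tested, had r = 0.51 with Bcl6. Their centred mean ranged from -1.51 to 2.88 at D0, -1.53 to 2.29 at D1, -1.30 to 2.27 at D2 and -1.82 to 0.71 at D3, and their median differences from D0 were -2.08, -1.32 and -2.18, and no fat gene met the thresholds by limma, with 1, 0 and 1 at an unadjusted p under 0.05. The 6 lists of genes that act with BCL6, described below, had r of 0.26 to 0.81 with Bcl6 here. The highest was that of the inducers and upstream regulators, and genes that BCL6 is known to repress had 0.56. These are among 110 such correlations computed, and the part of any list in the Bcl6 values was not tested. Bcl6 had r = 0.47 with the F strand mean and 0.53 with the R strand mean. Like the R strand mean, Bcl6 in forestomach fell from slide 1 to slide 3, at 0.48, 0.20 and 0.15. The part of the slide in these correlations with the interval was not tested.

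**Figure D4:**
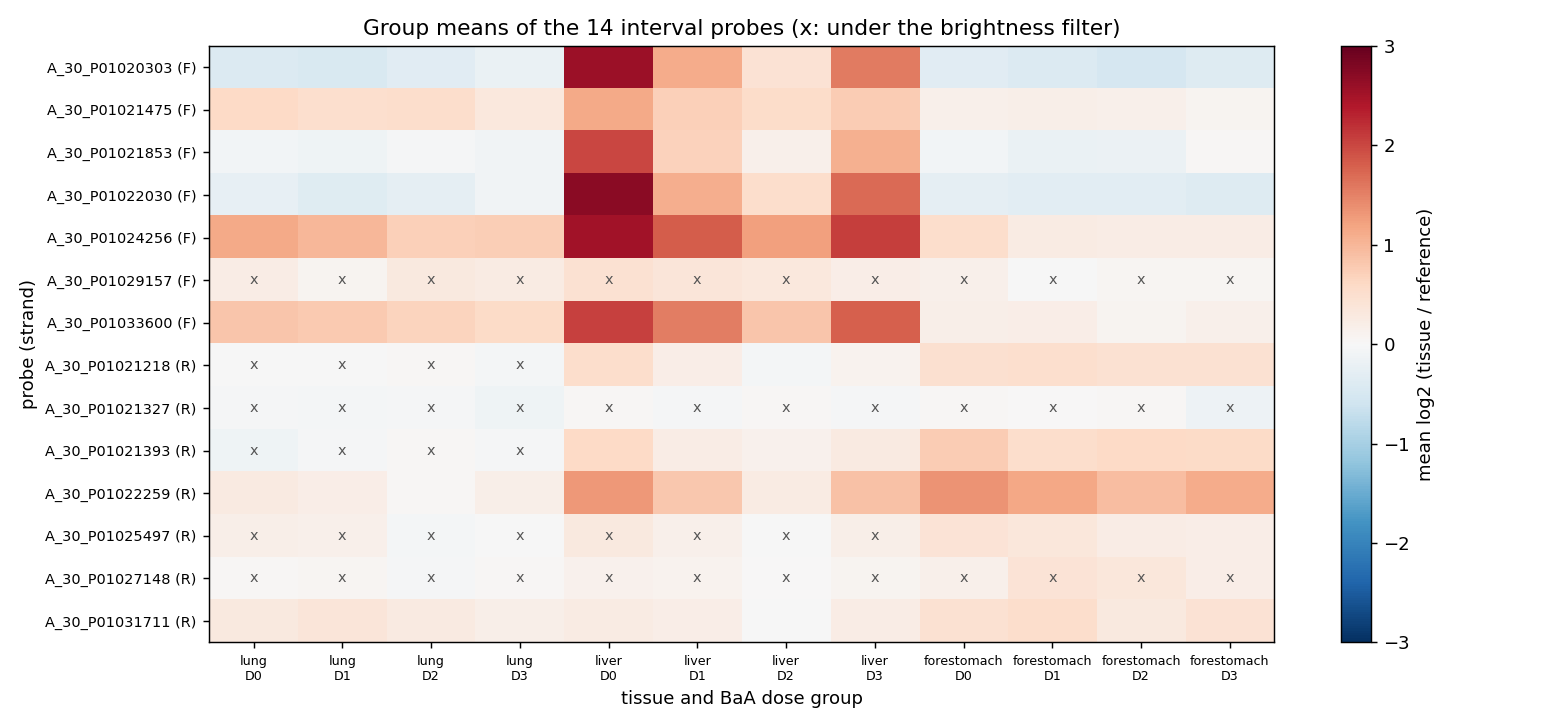
Mean log2 ratio of tissue to reference of each interval probe (rows, strand in brackets) in each tissue and dose group (columns); red is above and blue below the reference, and x marks a probe under the brightness filter in that tissue. The F strand probes had their highest mean in control liver, up to 2.72. A_30_P01022259 (R) was at 1.30 in control liver and 1.35 in control forestomach.

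Between tissues of control mice, the F strand mean was highest in liver (2.16), where every control lay above every control lung (highest 0.39) and forestomach (highest 0.35). Bcl6 averaged 1.29 for control lung, 0.61 for liver and 0.50 for forestomach, and liver overlapped both other tissues, while lung lay above every forestomach. For mice measured in both tissues, Bcl6 in lung and forestomach had r = 0.64 (19 mice), whereas lung and liver had r = 0.03 (19 mice). Mice 1, 6, 11, 12, 16 and 17 were on slide 1 in both lung and forestomach. Bcl6 averaged highest on slide 1 in both, at 1.20 and 0.48. Mice 1, 6, 11, 12 and 17 also shared slide 2 in liver, which had the highest mean there (1.26). The part of the slide in these correlations was not tested.

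Among the neighbours on the chromosome, 1 probe also fell in liver. Of the genome intervals with probes within 1 Mb, chr16:23989160-23992539 (F strand, mm9), which overlaps the start of the member interval, had 3 probes, none of which passed the filter in any tissue. The interval chr16:23543837-23560153 (F strand) had 2 probes in liver. A_30_P01018953 differed by -0.64 at D1, -0.79 at D2 (SE 0.17, adjusted p = 0.017, limma) and -0.44 at D3, with r = -0.21 to Bcl6, and A_30_P01030265 by -0.19, -0.21 (adjusted p = 0.26, limma) and -0.19. The 3 probes of chr16:23534663-23535172 (F strand) differed by -0.17 to -0.06 at D2 in liver. Rtp2 differed by -0.06 at D2 in liver (adjusted p = 0.88, limma), and the hormone gene Sst passed the filter in forestomach alone. Lpp, a cell adhesion gene further along the chromosome, had 2 probes in liver with differences at D2 of 0.02 and -0.01. With Bcl6 these Lpp probes had r of 0.72 and 0.77 in forestomach, -0.38 and -0.01 in liver, and -0.16 and 0.04 in lung.

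Genes known to act with BCL6 were taken from 6 lists. Of these 105 genes, 85 were tested in lung, 81 in forestomach and 77 in liver. In the liver 0 genes met the thresholds by limma with Benjamini-Hochberg adjustment at D1, D2 or D3. There 2, 5 and 6 had an unadjusted p under 0.05, as did 1712, 2904 and 3412 of all 22789 tested probes. In forestomach 0 met the thresholds. There 5, 6 and 5 had an unadjusted p under 0.05, as did 1427, 1067 and 1649 of all 32318 tested probes. In lung 0, 3 and 2 met the thresholds at D1, D2 and D3, which is 0%, 3.53% and 2.35% of the list genes tested. Of all tested lung probes 0%, 0.553% and 1.88% did. In lung 13, 21 and 25 of the 85 had an unadjusted p under 0.05, as did 2269, 4862 and 7243 of all 30383 tested probes.

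Among partners, none of the genes of the BCL6 family and its corepressors (18 tested in lung, 16 in liver and 18 in forestomach) met the thresholds in any tissue or dose. Bcor, the corepressor that binds the BTB domain, differed at D2 by 0.03 (SE 0.08) in lung and 0.06 (SE 0.10) in liver. Bcl6b, the closest relative of Bcl6, was 0.62 ± 0.16 at D0 and 0.94 ± 0.29 at D3 in lung (adjusted p = 0.18, limma) and did not pass the filter in liver. The inducers and upstream regulators (16 tested in lung, 12 in liver and 15 in forestomach) had 0 calls. Their median difference at D2 was 0.07 in lung and 0.02 in liver.

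Among genes that BCL6 is known to repress, 1 of 23 tested met the thresholds in lung. Cdkn1a, a cell cycle inhibitor, fell from -0.59 ± 0.28 at D0 to -1.26 ± 0.32 at D2 and -1.26 ± 0.23 at D3 (n = 5 each), by -0.68 (SE 0.16, adjusted p = 0.033, limma) and -0.67 (SE 0.16, adjusted p = 0.013, limma). Every mouse of both groups was below the control mean. The other Cdkn1a probe tested differed by 0.03 and -0.07, so the probes of this gene disagree. Without control mouse 5 the D3 difference was -0.583, just under the fold threshold, and under median centring it was -0.35 with an adjusted p of 0.95. At D2 leaving out any of 6 single mice ended the call, with differences of -0.55 to -0.68. Prdm1, which drives plasma cell formation, differed by 0.25 (SE 0.13, adjusted p = 0.34, limma) at D2 in lung, and Ccnd2, a cyclin, by -0.06 (SE 0.23).

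Genes of growth hormone and STAT5 had 0 calls in liver among the 14 tested, with a median difference of 0.02 at D2. Cish, a feedback inhibitor induced by STAT5, was 3.38 ± 0.90 at D0 and 1.45 ± 1.67 at D2 in liver, a difference of -1.93 (SE 0.71, adjusted p = 0.24, limma). Socs2, of the same family, was 1.90 ± 0.92 at D0 and 1.21 ± 0.52 at D3 (adjusted p = 0.46, limma). The 13 fasting and PPARα targets, all tested in liver, had 0 calls and a median difference of 0.02 at D2.

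Germinal centre and follicular helper T cell genes gave the other calls, all in lung. Cxcr5, the chemokine receptor that guides cells to follicles, rose from 1.89 ± 0.48 at D0 to 2.82 ± 0.16 at D2 and 2.80 ± 0.20 at D3, by 0.94 (SE 0.18, adjusted p = 0.0076, limma) and 0.91 (SE 0.18, adjusted p = 0.0031, limma). Bach2, a repressor of plasma cell formation, rose by 0.63 (SE 0.12, adjusted p = 0.0070, limma) at D2, while its other probe differed by 0.17. Both genes lost their calls under median centring, Cxcr5 also with Agilent's background-subtracted signals (0.29 at D2, adjusted p = 0.78), and Bach2 without control mouse 5 (0.58). Markers of B cells, which carry both genes, had 6 of 10 genes called higher at D2 and 3 of 10 at D3, where 0.553% and 1.88% of all lung probes were called in either direction, and had a centred mean of -0.47 to -0.11 at D0, 0.14 to 0.62 at D2 and -0.06 to 0.21 at D3. More cells of a type and more RNA per cell cannot be told apart in bulk tissue, and the part of B cells in these changes was not tested.

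The D3 effects of lung and liver were compared in 1 model for the 69 list genes tested in both tissues, and 1 met the thresholds (2.08% of all 21868 probes did). Icos, a costimulatory receptor of T cells, had a D3 effect of 0.44 in lung and -0.34 in liver, a difference of 0.78 (SE 0.21, adjusted p = 0.029, limma). With the mouse as a block, since tissues of 1 number came from the same animal, 1 gene was again called. Leaving out single mice gave 0 to 2 genes, with 0 without mouse 3, 4, 5, 17 or 19.

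The genes whose level was most like that of Bcl6 differed by tissue. Over the 19 livers, among 12043 genes, the highest correlations were those of Ugt2b5 (r = 0.82), Slco1a1 (0.81), Selenbp1 (0.76) and Cyp2d11 (0.76), and the lowest those of Lbr (-0.78) and Rbm3 (-0.76). Ugt2b5 and Cyp2d11 belong to families with near-identical members, so their probes may read relatives too. In lung the highest were Kcnq1ot1 (0.83), Sart1 (0.83), Lats1 (0.82) and Atp13a3 (0.81) and the lowest Tug1 (-0.80) and Akap10 (-0.79). In forestomach they were Syne1 (0.88), Ppp1r12a (0.84), Nudt4 (0.84) and Matn2 (0.84), with Zdhhc3 (-0.88) and Ilrun (-0.87) lowest. These are the extremes of all genes tested and are given as descriptions.

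Against the tissue labels, all 8 lung epithelium genes in lung, all 8 hepatocyte genes in liver and 8 of 9 squamous epithelium genes in forestomach stood above background on every array of the tissue. Of the 10 glandular stomach genes, 5 did so in forestomach. Some lungs also carried markers of other tissue. The centred mean in lung reached 5.89 at D0 and 2.01 at D3 for skeletal muscle genes. It reached 3.61 and 1.80 for squamous epithelium genes, and 3.98 at D2 for fat genes. Over the lungs these 3 lists had r of 0.21, 0.22 and -0.37 with Bcl6. Lung epithelium genes had 0.47 and hepatocyte genes (4 tested) -0.67. The part of tissue composition in the lung values was not tested. Spots well above background made up 34.1% to 69.2% of an array.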

How the data were processed

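RNA of lung, liver and forestomach was hybridised to Agilent 2-colour arrays. Per the file headers, the deposited intensity values were read with Feature Extraction 10.7.3.1. As the authors did, median signals without background correction were used. The authors also deposited log2 ratios normalised by LOWESS, which correlated with those computed here at r of 0.995 to 0.998 per array and served as an alternative. Here arrays were normalised by loess in limma 3.58.1 (R 4.3.3), outlier spots (0.495%) were left out and spots of a probe averaged. Uncorrected background pulls the ratios of dim probes towards 0. A probe was tested if well above background on at least 4 arrays of a tissue. One limma model per tissue held the 4 dose groups, and a call required a 1.5-fold change and an adjusted p (Benjamini-Hochberg, over all probes) no higher than 0.05. The study's MAANOVA test was replaced by limma's. Symbols came from RefSeq, and a list gene was read from its brightest tested probe. A list score is the mean over its tested genes of each gene's ratio minus its mean in the tissue. Standard errors of strand means came from a linear model on dose group. The members and gene lists were chosen with earlier results of these data known. Named were all members, called list genes, 7 fixed genes, chromosomal neighbours and the genes most like Bcl6 (4 highest and 2 lowest correlations). Tissues with the same mouse number came from 1 animal, and same-numbered lungs and livers had correlated deviations from group means with a median r of 0.12 (-0.03 to 0.19). The limma step was tested on simulated data. The number of arrays limits the precision. Files hold no mean signals, so normexp used medians.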

Additional observations from a re-analysis of the deposited data

Results flagged for a closer look

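Of 72 groups of mice examined for a single outlying sample, 4 held one, where chance gives about 1 in 20. The F strand mean of D1 mouse 7 in lung was 0.13, against 0.23 for the next. Cdkn1a in liver was -2.47 in D1 mouse 10, against -3.18 for the next. Cdkn1a in forestomach was 0.53 in D1 mouse 10, against 0.94 for the next. Bach2 in lung was 1.91 in D3 mouse 17, against 1.41 for the next.

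The D3 effect on Icos differed between lung and liver by 0.78 (SE 0.21, adjusted p = 0.029, limma). It was 1 of 69 list genes tested, where 2.08% of all probes were called, and leaving out single mice gave 0 to 2 list genes. Markers of T cells in lung had a centred mean of -0.39 to -0.06 at D0 and -0.08 to 1.36 at D3, where the group mean was 0.25. In liver these markers had -0.10 to 0.22 at D0 and -0.05 to 0.12 at D3. Their part in the difference was not tested.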

How the results depend on the processing

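The dim interval probes limit the precision, since their ratios depend on how background is treated. Of 34 results, 14 stayed within a set tolerance under every alternative, which is wide: 1 SD between mice for a difference, the 95% interval for a correlation and 1.5 times for a count. Within it, the D1 difference of Bcl6 in liver ran from -0.65 (without control mouse 5) to 0.21 (without mouse 8), and the D2 difference in forestomach was -0.005 under median centring. Normexp correction, the authors' log2 table and slide as a block moved no result beyond it. Under median centring the D3 difference of Bcl6 in lung was 0.062, the correlation of the F strand mean with Bcl6 was 0.84 in lung and 0.79 in forestomach, and 0 list genes were called at D3 in lung and 0 in the comparison of lung with liver. With Agilent's background-subtracted signals the D3 differences were -0.28 (R strand, lung), -0.87 (R strand, liver) and -0.22 (F strand, forestomach). With no minimum fold, 13 list genes were called at D3 in lung, and with the Cy5 channel alone 1 in forestomach. Leaving out single mice gave 1 to 3 list genes at D3 in lung (1 without control mouse 5) and 0 to 2 in the comparison of lung with liver. With mouse as the replicate block that comparison gave 1 gene, as without it. The causes were not tested.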
